A study of Chlorocebus sabaeus with 12 samples.

Results

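A set of 10 liver genes known as targets of the bile acid receptor FXR were followed in a kidney cell line that had been given FXR: NR0B2, ABCB11, ABCB4, CYP7A1, CYP8B1, SLCO1B3, BAAT, FGA, APOC3 and C3. The genes were chosen by name, with earlier results of these data known. Each probe that the scanner files assign to one of them was taken. This gave 12 probes for 10 genes (FGA has 3), of 41000 probes with 30982 gene names. With the call used throughout, a gene was measured where the scanner software flagged a probe of it as well above background in every array of 1 or more of the 4 groups. Of the 10 genes, 2 were measured, C3 and BAAT, against 65.7% of all gene names, and of the 12 probes 2, against 65.6% of all probes. The other 8 did not reach that call, in cells in which the bile acid ligand raised FABP6 135-fold with 1 of the 2 receptors used.

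COS-1 is a kidney line of the African green monkey. The cells expressed human FXR for 24 h with a serine replaced, either by alanine (S154A, which cannot be phosphorylated there) or by aspartate (S154D, whose charge resembles a phosphate), and then received 0.1% DMSO or chenodeoxycholic acid (CDCA), which the labels print at 50 mM, for another 24 h. All 4 groups, S154A_DMSO, S154A_CDCA, S154D_DMSO and S154D_CDCA, carry a mutant receptor, and none holds untransfected cells or wild-type FXR. Total RNA was hybridised in 1 colour to 3 human whole-genome arrays per group, 12 in all. The labels do not say that replicates were separate cultures, so p-values measure the spread between these arrays, which may be technical. The share of spots well above background ran from 61.6% on S154A_CDCA replicate 2 to 79.8% on S154A_DMSO replicate 1. The 75th percentile of the signal ranged from 1235 to 2105. The dimmest signal marked well above background ranged from 16.8 to 52.9. The arrays lay on 4 slides, and slide 4, scanned on another day, held S154A_CDCA replicate 2 and S154D_DMSO replicate 2. Slide 2 held S154D_CDCA replicates 1 and 3 with S154A_DMSO replicate 2, and no array of the other groups. Slide and S154D_CDCA can thus be only partly told apart.

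FXR is a nuclear receptor that binds bile acids and, as a partner of RXR, switches genes on directly. In the liver it induces the small repressor SHP (NR0B2), which together with the gut hormone FGF19 shuts down bile acid synthesis at CYP7A1 and CYP8B1, and it induces the pumps that move bile acids and phospholipid into bile. Conjugation by BAAT, uptake by SLCO1B3, the blood proteins FGA and C3, and the lipoprotein component APOC3 are further hepatic outputs, of which APOC3 is known to be repressed.

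The sequences of 4 probes show what the array asked of monkey RNA. C3 and BAAT are the measured genes, ABCB4 is the gene whose log2 signal moved most between arrays of 1 group, and APOC3 was at background on every array. All are 60 bases long and are written, in lower case, as the deposited scanner files give them.
C3: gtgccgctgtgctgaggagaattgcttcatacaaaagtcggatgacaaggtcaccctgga
BAAT: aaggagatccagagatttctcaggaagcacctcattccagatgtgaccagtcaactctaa
ABCB4: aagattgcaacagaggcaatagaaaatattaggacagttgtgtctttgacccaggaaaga
APOC3: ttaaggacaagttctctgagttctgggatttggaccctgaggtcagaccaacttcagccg

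These are the human sequences, and how well each matches the green monkey transcript was not tested. In the human build hg17, which the files use, the C3 probe lies at chr19:6630177-6630434 on the minus strand, a span of 258 bases, wider than the probe, as for one that joins exons. The ABCB4 probe, at chr7:86687628-86691281 on the minus strand, likewise spans 3654 bases. The BAAT probe lies within 60 bases at chr9:101204265-101204324 (minus strand), and the APOC3 probe at chr11:116208740-116208799 (plus strand). G and C make up 51.7% of the C3 probe, 45% of the BAAT probe, 38.3% of the ABCB4 probe and 50% of the APOC3 probe. All 10 gene names are also green monkey RefSeq symbols, and of the 12418 names with such a symbol 82.7% were measured.

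FXR activity in these cells was read from 3 genes that are not among the 10. FABP6, the bile acid carrier of the ileum, gave processed signals (background-subtracted intensities) of 189, 52.9 and 40.9 in S154A_DMSO and of 7832, 10765 and 9794 in S154A_CDCA. The groups lay far apart, and with limma the log2 change was 7.08 ± 0.57 (SE, n = 3 and 3; adjusted p = 0.000587). With normexp background correction it was 6.04 and was still called. FGF19 was well above background on each array of S154A_CDCA and on none of S154A_DMSO for both of its probes, at least 24.0-fold (adjusted p = 0.0133) and at least 25.9-fold (adjusted p = 0.000251) higher, where the bound sets the bright mean against the dimmest signal still well above background. OSTalpha, a subunit of the bile acid exporter, rose 5.88-fold (adjusted p = 0.000251) on one probe and 4.33-fold (adjusted p = 0.0125) on the other. The call of the first FGF19 probe did not hold without S154A_DMSO replicate 2 or 3, nor without any single array of S154A_CDCA, with adjusted p from 0.0642 to 0.0941. With S154D none of these probes was called: the log2 change with CDCA was 0.16 for FABP6, 0.20 and 0.28 for OSTalpha, and 0.21 and -1.37 for FGF19. The FXR probe itself (NR1H4) passed background on 12 of 12 arrays, at mean log2 levels between 7.56 and 7.77 above the 75th percentile, and was not called in any comparison.

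By the call used here the 10 genes fell into 2 classes, though single signals of ABCB4 reached those of BAAT. C3 and BAAT were well above background on 12 of 12 arrays, as were 57.7% of all gene names. With a single array sufficing, 7 of the 10 genes passed, against 85.4% of all names, and the 3 that did not were CYP7A1, SLCO1B3 and APOC3. With 2 of the 3 arrays of a group sufficing, ABCB4 and CYP8B1 joined C3 and BAAT, which made 4 of 10 against 70.9%. A laxer flag of the software, for a positive signal that differs from the local background, passed 8 of 10 against 80.9%, all but SLCO1B3 and APOC3. Under the laxer flag the share of the 10 was near that of all names. The other 10 probes gave 120 values, of which 10 (8.33%) were well above background, against 11.8% over all 14102 probes that failed the same filter. Of the 120, 60 were replaced by the software with a surrogate, a stand-in value set from the noise for a spot that did not exceed it. The highest of the 120 was the signal of ABCB4 in S154A_CDCA replicate 1.

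**Figure D1:**
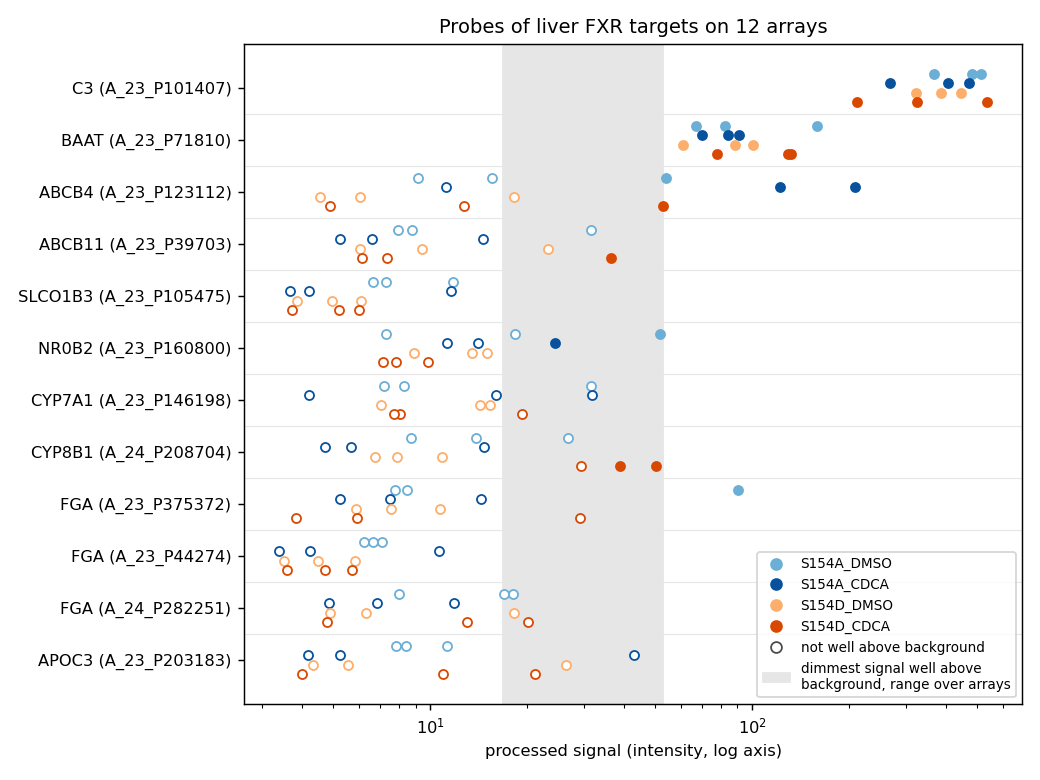
Processed signal (intensity, log axis) of the 12 probes on 12 arrays, coloured by group; filled points are well above background and open points are not. C3 and BAAT are filled on all arrays, and of the other 120 points 10 are filled; the grey band runs from 16.8 to 52.9, the range over arrays of the dimmest signal marked well above background.

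Bile acid synthesis was represented by 3 genes. CYP7A1 makes the rate-limiting enzyme of the classical pathway. Its signals were 31.5, 8.28 and 7.20 in S154A_DMSO, 4.20, 31.8 and 16.0 in S154A_CDCA, 14.2, 15.3 and 7.01 in S154D_DMSO, and 19.3, 8.04 and 7.72 in S154D_CDCA. The groups overlapped and no array was well above background, so neither a level nor a fold can be given for CYP7A1.

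CYP8B1, the sterol 12-alpha-hydroxylase that sets the share of cholic acid, gave 26.8, 8.71 and 13.9 in S154A_DMSO and 5.69, 14.7 and 4.72 in S154A_CDCA. In S154D_DMSO it gave 10.9, 7.89 and 6.73, and in S154D_CDCA 50.3, 38.9 and 29.4, the first 2 of them well above background. S154D_CDCA thus held the 3 highest values and did not overlap any other group, though on replicate 3 the probe was not well above background. Among probes that passed the filter, which CYP8B1 did not, 34.6% did not overlap between S154D_CDCA and S154D_DMSO. Between S154D_CDCA and S154A_CDCA that share was 27.9%. CYP8B1 failed the filter, so it was tested only in a fit of all 41000 probes that was added after its values were seen. In that fit its log2 level in S154D_CDCA exceeded that in S154D_DMSO by 2.03 ± 0.44 (SE; adjusted p = 0.0809 with limma), which missed the threshold of 0.05. Set against the dimmest signal still well above background, the S154D_CDCA mean was 1.53-fold higher than S154D_DMSO. That mean includes replicate 3, which was not well above background, so 1.53 is no strict lower limit.

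Against S154A_CDCA the excess of CYP8B1 was 2.36 ± 0.44 (limma adjusted p = 0.143), or 1.43-fold when set against the dimmest signal still well above background. Of the values compared against, all 3 of S154A_CDCA and 2 of 3 of S154D_DMSO were surrogates, so the fitted differences do not give the size. Within slide 3, the only slide that allows it, CYP8B1 gave 38.9 in S154D_CDCA, against 6.73 in S154D_DMSO and 5.69 in S154A_CDCA, both surrogates. No size is given for the difference of the CDCA responses, since 3 of its 4 groups were at background on every array. CYP8B1 was the only 1 of the 12 probes with an unadjusted p under 0.05 in these 2 comparisons and in the difference of responses, against 19.1%, 14.2% and 13.6% of all 41000 probes, and none of the 12 had one in the other comparisons. The fitted difference moved with the processing. The limma adjusted p of the response with S154D was 0.0439 after quantile normalisation and 0.368 with normexp correction, where the log2 difference was 0.38.

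BAAT, which joins bile acids to glycine or taurine, was measured on every array. Its signals were 158, 82.4 and 66.8 in S154A_DMSO, 69.9, 91.0 and 84.1 in S154A_CDCA, 101, 88.5 and 61.0 in S154D_DMSO, and 129, 77.7 and 132 in S154D_CDCA. Scaled to the array's 75th percentile, its mean log2 levels were -4.20 ± 0.44 (SD, n = 3), -4.33 ± 0.10, -4.18 ± 0.22 and -3.94 ± 0.05 in the same order. On that scale the 3 arrays of S154D_CDCA lay above all arrays of S154A_CDCA and overlapped with both DMSO groups.

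With S154A, the log2 difference of BAAT between CDCA and DMSO was -0.14 (95% interval -0.57 to 0.30; limma adjusted p = 0.971). The sign turned to 0.10 without S154A_DMSO replicate 1, and within slides the difference was -0.69 on slide 1 and 0.38 on slide 3. With S154D the difference was 0.25 (interval -0.19 to 0.68; adjusted p = 0.428). In CDCA, BAAT was 0.40 higher with S154D than with S154A (interval -0.04 to 0.83; unadjusted p = 0.0698, adjusted p = 0.248), and the groups did not overlap, as was so for 27.9% of all probes in that comparison. In DMSO the mutants differed by 0.02 (interval -0.42 to 0.45). No comparison of BAAT passed the test, and the interval in CDCA allows up to 0.83.

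Of 14 other bile acid synthesis genes 9 were measured, or 64.3%. This was near the 65.7% of all gene names and below the 82.7% of names with a green monkey RefSeq symbol. All 9 were well above background on 12 of 12 arrays. They included CYP7B1, of the alternative pathway, and the peroxisomal enzymes HSD17B4, SCP2, AMACR and ACOX2. CYP27A1, AKR1D1, AKR1C4 and CH25H were well above background on no array. Of the 9, ACOX2 was called, in the response with S154D (log2 change 0.61, limma adjusted p = 0.0282), a call lost with the slide as a block, and 1 of 9 is near the 11.6% of all probes called in that comparison. The median change of the 9 with S154D was 0.19, beside -0.02 over all probes tested.

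The transporters were at background or passed it on at most 4 of 12 arrays. ABCB11, the bile salt export pump, is a classical direct FXR target. It gave 31.6, 7.92 and 8.77 in S154A_DMSO, 5.25, 14.6 and 6.61 in S154A_CDCA, 9.39, 23.3 and 6.06 in S154D_DMSO, and 36.4, 7.32 and 6.14 in S154D_CDCA. One array, S154D_CDCA replicate 1, was well above background, and in the S154A arrays, where FABP6 rose, none was.

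ABCB4, the phospholipid floppase of the bile canaliculus, had the widest spread on the log2 scale. It gave 54.0, 9.16 and 15.5 in S154A_DMSO, 209, 11.2 and 122 in S154A_CDCA, 4.54, 6.06 and 18.2 in S154D_DMSO, and 12.7, 52.8 and 4.88 in S154D_CDCA. The 2 highest of all 12 values were both S154A_CDCA, but replicate 2 of that group was among the dim ones, and S154A_DMSO replicate 1 and S154D_CDCA replicate 2 were also well above background. In the fit of all probes the log2 change with CDCA was 1.84 ± 1.34 (SE; adjusted p = 0.952 with limma) with S154A and 0.72 ± 1.34 with S154D. The groups overlapped in both, and most DMSO values were not well above background, so these changes give no size.

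Single arrays set the value of ABCB4. Without S154A_CDCA replicate 2, the array with the fewest spots above background and the highest limit (52.9), its change with S154A was 3.21 (limma adjusted p = 0.543), and ABCB4 then counted as measured. Without S154A_CDCA replicate 1 it was 0.84. Within slide 1 the change was 1.40 and within slide 3 it was 4.06. On slide 3 the S154A_DMSO array was not well above background, so 4.06 gives no size. The part of the array limit in this spread was not tested.

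SLCO1B3, the basolateral uptake carrier OATP1B3, gave signals of 3.66 to 11.7 with a median of 5.59. On 11 of 12 arrays they were surrogates, and none was well above background. Its close relative SLCO1B1 was well above background on 2 arrays, SLCO1A2 on none, and SLCO2B1 on 12. ABCB1, the neighbour of ABCB4 in sequence and on the chromosome, was well above background on 12 of 12 arrays at a mean log2 level of 0.53, and its log2 change with CDCA was -0.02 with S154A and 0.17 with S154D, neither called. Of 13 close relatives of the 10 genes, 8 were measured (61.5%), beside 65.7% of all gene names. The families of the 2 canalicular pumps and the uptake carrier were thus not all at background in these cells.

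NR0B2 encodes SHP, the repressor through which liver FXR lowers bile acid synthesis. Its signals were 51.7, 18.3 and 7.28 in S154A_DMSO, 14.1, 11.2 and 24.5 in S154A_CDCA, 13.5, 8.88 and 15.1 in S154D_DMSO, and 9.86, 7.83 and 7.11 in S154D_CDCA. The value in S154A_DMSO replicate 1 was the highest, and it and S154A_CDCA replicate 3 were the 2 arrays well above background. The fit of all probes gave a log2 change with CDCA of -0.18 ± 0.57 with S154A (95% interval -1.46 to 1.10) and -0.75 ± 0.57 with S154D, neither called. With 1 of 3 arrays of each S154A group well above background, these values set no limit on a change of the transcript.

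The blood proteins differed among themselves. FGA, the fibrinogen alpha chain, was read by 3 probes that agreed on background. Probe A_23_P44274 was a surrogate on 12 of 12 arrays, between 3.40 and 10.6. Probe A_24_P282251 ran from 4.77 to 20.1 with no array well above background. Probe A_23_P375372 gave 90.1 on S154A_DMSO replicate 1 and 3.81 to 29.2 on the others, and that 1 array was well above background. Of the other fibrinogen chains, FGB was well above background on 2 arrays and FGG on 8.

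APOC3, which slows the clearance of triglyceride-rich particles, gave 11.3, 7.84 and 8.43 in S154A_DMSO, 5.23, 42.9 and 4.18 in S154A_CDCA, 4.32, 26.4 and 5.53 in S154D_DMSO, and 11.0, 3.99 and 21.2 in S154D_CDCA. The 2 highest values were both on slide 4, and neither was well above background there. Of its neighbours in the same gene cluster, APOA1 was well above background on 2 arrays, APOA5 on 2 and APOA4 on 11. With its probe at background in DMSO, a lower level of APOC3 in CDCA was not measurable here.

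C3, the central component of complement, was measured on every array. It gave 483, 515 and 367 in S154A_DMSO, 267, 471 and 406 in S154A_CDCA, 386, 446 and 324 in S154D_DMSO, and 537, 212 and 326 in S154D_CDCA. S154D_CDCA held both its highest and its lowest signal. The scaled mean log2 levels, in order from the highest, were -1.95 ± 0.11 (SD, n = 3) in S154D_DMSO, -1.96 ± 0.31 in S154A_DMSO, -2.14 ± 0.16 in S154A_CDCA and -2.33 ± 0.40 in S154D_CDCA, and no neighbours in that order differed by more than their spread.

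The difference of C3 between CDCA and DMSO was negative with both mutants and passed the test with neither. The log2 change was -0.18 with S154A (95% interval -0.64 to 0.28; limma adjusted p = 0.969) and -0.38 with S154D (interval -0.84 to 0.08; unadjusted p = 0.0978, adjusted p = 0.247). Within slides it was -0.02 and -0.14 with S154A and -0.54 with S154D. The S154D value was -0.61 without S154D_CDCA replicate 1 (limma adjusted p = 0.0512), -0.25 without S154D_CDCA replicate 3, -0.16 with the correction for probe GC content, -0.20 unscaled and -0.58 with the slide as a block. S154D differed from S154A by 0.01 in DMSO (interval -0.45 to 0.47; adjusted p = 1.00) and by -0.19 in CDCA (interval -0.65 to 0.27; adjusted p = 0.594). Of 18 other complement genes 14 were measured (77.8%), C5 among them on 12 arrays. Over all gene names the share was 65.7%, and over names with a green monkey RefSeq symbol 82.7%. The C3 intervals leave room for a change with S154A of up to 0.28 upward, which is below the change of FABP6, FGF19 or OSTalpha in the same arrays.

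**Figure D2:**
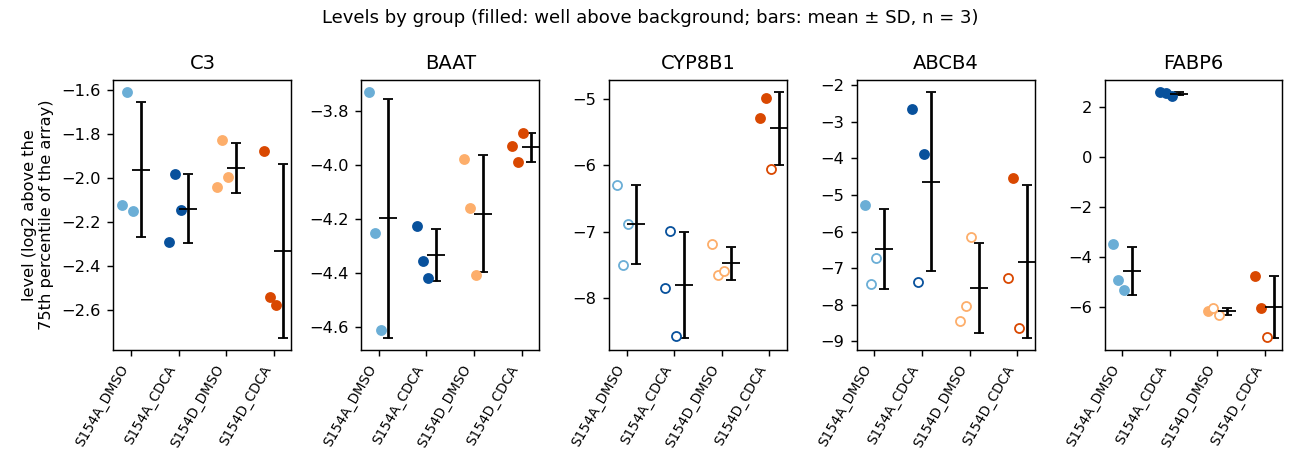
Scaled levels (log2 above the array's 75th percentile; each panel has its own axis) of C3, BAAT, CYP8B1, ABCB4 and, for comparison, FABP6 in the 4 groups; points are arrays, filled where well above background, and bars are the mean ± SD (n = 3). C3 lies between -2.58 and -1.61 and BAAT between -4.61 and -3.73, CYP8B1 is highest in S154D_CDCA, ABCB4 spreads from -2.65 to -7.38 within S154A_CDCA, and FABP6 reaches 2.52 in S154A_CDCA.

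Of the 2 measured genes, 0 were called in any of the 5 comparisons with limma, and 0 had an unadjusted p under 0.05. Over all 26898 probes tested, the share called was 0.119% for CDCA with S154A, 11.6% for CDCA with S154D, 0% for the mutants compared in DMSO, 0.346% for the mutants compared in CDCA and 0.219% for the mutants' unequal responses. In the fit of all 41000 probes, 0 of the 12 were called as well. The 11.6% was not stable: it fell to 0 probes with the slide as a block, with a correction for probe GC content, without the filter, in a fit of only the groups compared, and without either S154D_DMSO replicate 3 or S154D_CDCA replicate 3, and to 2 probes without S154D_DMSO replicate 1. It lay between 1124 and 3500 probes without any other single array, the lowest without S154D_CDCA replicate 2. For the difference of the responses, S154D minus S154A, C3 gave -0.20 (interval -0.85 to 0.45; adjusted p = 0.717) and BAAT 0.38 (interval -0.24 to 1.00; adjusted p = 0.441).

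Of the 29 other FXR targets on the list 20 were measured (69.0%), beside 65.7% of all gene names. FGF19 and OSTbeta passed the filter only through S154A_CDCA, where they were high. The count of 20 therefore depends in part on the response to CDCA and cannot be set against the 2 of 10. With S154A 5 rose with CDCA and 0 fell, beside 0.119% of all probes called in that comparison. The 5 were FABP6, FGF19, OSTalpha, the proteoglycan SDC1 (log2 change 1.14) and the plasma protein FETUB (1.71), and the median of the 20 was 0.04, beside -0.04 over all probes tested. With S154D, 0 of the 20 were called, beside 11.6% of all probes tested. The list was chosen with results of these data known, so its count is no independent evidence of a direction.

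The labelled tissue was checked against markers. Kidney epithelial genes were measured in 10 of 15 cases, with the tubular water channel AQP1, the keratins KRT8 and KRT18 and the transcription factor PAX8 well above background on 12 arrays, and that share, 66.7%, is near the 65.7% of all gene names. The nephron genes PAX2, LRP2, SLC34A1, SLC12A1 and SLC12A3 did not pass, with 2 to 7 arrays well above background. Of names with a green monkey RefSeq symbol 82.7% were measured, which is above the kidney share and above that of hepatocyte markers. Hepatocyte markers were measured in 13 of 20 cases, or 65%, close to the 65.7% of all gene names. Of the 20, 11 were well above background on 12 arrays, the brightest being SERPINA1, ALB, F2 and AHSG. TAT was well above background on 4 arrays, TTR and APOA1 on 2, APOA2 on 1, and APOB, G6PC and CPS1 on none. Of 16 liver transcription factors 13 were measured, including CEBPA, CEBPB and RXRA, while HNF4A passed on 3 arrays and PROX1 and NR1I2 on none. Fibroblast markers were measured in 7 of 10 cases, and leukocyte markers in 5 of 6. List genes called in the response to CDCA with S154D included, besides ACOX2, 4 others: SLCO2B1 (log2 change 1.15) and the epithelial marker EPCAM (0.52, under its older symbol TACSTD1 in the files) rose, and C4B (-0.55) and the collagen COL1A1 (-0.56) fell. None of these calls held with the slide as a block or with the correction for probe GC content. In a bulk sample, fewer cells with a transcript and less of it per cell cannot be told apart.

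**Figure D3:**
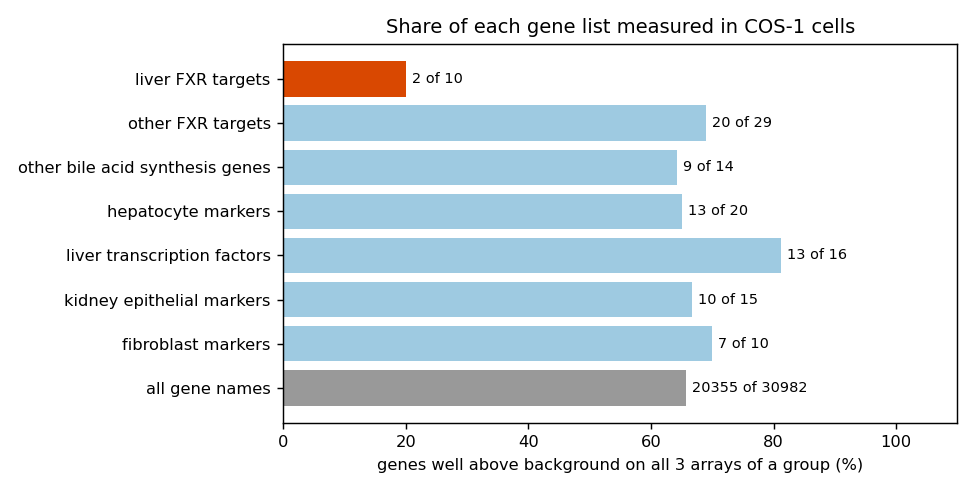
Percent of the genes of each list that were well above background in every array of 1 or more groups, with the counts at the bar ends. The liver FXR targets stand at 2 of 10, and the other lists drawn and all gene names at 64.3% or more. The lists were chosen with earlier results of these data known.

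The single arrays on which the 10 dim probes were well above background were set beside all dim probes of the array. S154A_DMSO replicate 1 had 3 of the 10, from ABCB4, NR0B2 and FGA, and 39.8% of all probes that failed the filter were well above background there. S154D_CDCA replicate 1 had 2 of 10 (21.9% of all such probes), S154A_CDCA replicate 3 had 2 (17.5%), S154D_CDCA replicate 2 had 2 (10.5%) and S154A_CDCA replicate 1 had 1 (5.54%). The other 7 arrays had none of the 10, with 2.75% to 14.7% of all such probes. The part of these array differences in the single high values of ABCB4, NR0B2, FGA, ABCB11 and CYP8B1 was not tested.

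**Figure D4:**
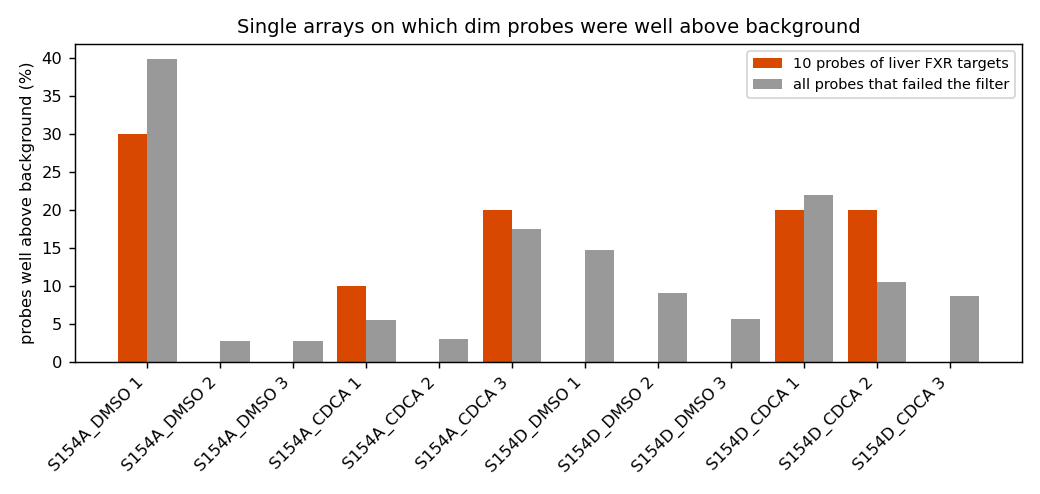
Percent of the 10 dim probes of liver FXR targets (orange) and of all 14102 probes that failed the filter (grey) that were well above background on each array. S154A_DMSO replicate 1 is highest for both, at 30% and 39.8%.

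The genes whose kept probe followed C3 and BAAT most closely over the 12 arrays, among 10199 symbols, are given as a description. For C3 they were PRKCZ (Pearson r = 0.97), GPR3 (0.96) and NRTN (0.96). For BAAT they were GUCY2C (0.86), TMEM116 (0.86) and RHBDL2 (0.85). The points share arrays and slides, and the symbols are the best of all those searched.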

How the data were processed

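Per the file headers, the authors' deposited scanner files hold background-subtracted 1-colour intensity values from Agilent Feature Extraction 9.5.3.1 with hg17 coordinates; the submitters' processing notes name version 12. The deposited series table holds the same intensity values. From these, log2 of the processed signal was taken and the array's 75th percentile over 43376 non-control spots subtracted; deposited log2 values were not used. Outlier spots (66 to 196 per array) were removed and spots of a probe averaged. Probes well above background in every array of 1 or more groups (26898 of 41000) were fitted with limma 3.58.1 (R 4.3.3, data.table version 1.17.8), one mean per group over 12 arrays, two-sided, with Benjamini-Hochberg adjustment over all kept probes and calls at 0.05. Intervals are at 95%; the number of arrays limits the precision. The script was tested on simulated data. Named were all member probes, FABP6, FGF19, OSTalpha, NR1H4, close relatives, called genes of the lists and up to 4 bright ones of each, and the 3 most correlated symbols; list members at background were named after their flags were seen, and 1 called list gene is not reported here. The members and gene lists were chosen with earlier results of these data known. Alternatives covered background correction, scaling, the filter, slide and replicate blocks, probe GC content and leaving out arrays.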

Additional observations from a re-analysis of the deposited data

How the results depend on the processing

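No probe of the 10 genes was called in any comparison under the alternatives run on the filtered fit, each array left out in turn included. The count of genes measured was 8 with the laxer flag for a positive and significant signal (80.9% of all gene names), 7 with 1 array sufficing (85.4%), 4 with 2 of 3 arrays of a group (70.9%), and 2 to 3 when leaving out 1 array, where ABCB4 was added without S154A_CDCA replicate 2 and CYP8B1 without S154D_CDCA replicate 3. The count of other FXR targets that rose with S154A was 3 on the unscaled series table, with only probes well above background on all 12 arrays and with the slide as a block, and 4 to 5 when leaving out 1 array; the cause was not tested. The call of the first FGF19 probe was lost with the slide as a block (6.27, limma adjusted p = 0.105) and without slide 4 (6.12, limma adjusted p = 0.135). The second FGF19 probe was not followed singly under the alternatives.

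Signs near 0 turned. S154D against S154A in DMSO was for C3 -0.0054 with normexp, -0.0025 with the percentile over probes well above background on all 12 arrays, -0.24 unscaled, -0.058 without slide 4 and -0.066 with GC correction, and for BAAT -0.026 with normexp, -0.23 unscaled, -0.015 with the slide as a block and -0.0098 with GC correction. The C3 difference of responses was 0.082 unscaled and 0.0024 with GC correction. Leaving out 1 array gave -0.34 to 0.10 for BAAT with CDCA and S154A, and in DMSO -0.088 to 0.18 for C3 and -0.19 to 0.25 for BAAT. Without scaling, the median over all probes shifted by -0.14, 0.16, -0.24, 0.08 and 0.30 in the 5 comparisons. For CYP8B1 with S154D, the alternatives of the fit of all probes gave 0.38 to 2.76 (adjusted p from 0.0439 to 0.789). As deviations from their group means, same-numbered arrays of different groups correlated at -0.38 to 0.53 (median 0.09). Differently numbered ones correlated at -0.51 to 0.53 (median -0.06). On average, 8 of the 12 arrays correlated more with arrays of their own number. The labels do not say that a number marks a pair, so none was assumed. With the replicate block 0 probes of the 10 genes were called in every comparison, and all calls with S154D fell from 3111 to 1014. Fits of only the groups compared give no value for the difference of responses. Signal over background limits 8 of the 10 genes: for these no level or firm fold can be given.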
